A study of Mus musculus with 16 samples.

Results

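The 9 genes described here encode the CIDE proteins (Cidea, Cideb, Cidec), the perilipins (Plin1 to Plin5) and G0s2, all of which act at the surface of lipid droplets, and they are 9 of the 22322 genes in each deposited table. They were taken by gene symbol, and the set was picked because Cidea and Plin4 were almost absent from liver after treatment. The liver values of these genes are therefore given as a description: calls are counted beside the share of all genes called, nothing is read from them, and no p-value is given. The fat values were not used to pick the set and are tested.

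DIO (diet-induced obese) mice received intraperitoneal halofuginone at 100 μg/kg, or vehicle, every 2 days, and tissue was taken after 8 weeks. Poly(A)-selected RNA was sequenced from liver (5 vehicle and 5 halofuginone samples) and white adipose tissue (3 and 3). Vehicle samples are labelled HFD and treated samples H100, with no allele or transgene named. Both groups are of DIO mice, and no lean group enters any comparison. Body weight when tissue was taken is not among the values used here. Strain, age, sex, fat depot, whether liver and fat of 1 number share an animal, and whether the samples of a group are separate animals are not given in the sources used here. The p-values below therefore measure the spread between these samples, which may be partly technical.

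A lipid droplet is a core of triglyceride and sterol ester under a single layer of phospholipid, and the proteins on that layer set how the fat is stored and released. Perilipins coat the droplet and control access of lipases, CIDE proteins gather where droplets touch and move lipid from the smaller to the larger droplet, and G0s2 binds and inhibits the triglyceride lipase encoded by Pnpla2. Adipocytes are known for Plin1, Plin4 and Cidec, hepatocytes for Plin2, Plin5 and Cideb, and Cidea and Cidec are known to rise in fatty liver, where the nuclear receptor encoded by Pparg can drive them. Halofuginone inhibits prolyl-tRNA synthetase and so evokes the transcriptional response to amino acid shortage.

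A liver library held 20309956 to 31980683 counts and a fat library 17070614 to 21387799. A level of 3 counts, the most that a count of 0 allows, equals 0.0983 to 0.1502 CPM (counts divided by the scaled library size) for liver libraries and 0.139 to 0.1798 CPM for fat. This floor covers counting error only, since no molecular identifiers are named for these libraries. Each tissue carried its own markers: Alb, the albumin of hepatocytes, was at 26720 to 98770 CPM in liver and at most 4.58 CPM in fat, and Adipoq, the adipocyte hormone adiponectin, was at 990 to 2541 CPM in fat and at most 1 count per liver. Halofuginone liver 1 stood apart from the other treated livers: the 6 genes of the amino acid response, among them Asns and Trib3, summed to 127 CPM there, within the vehicle range of 111 to 147 CPM, against 664 to 844 CPM in the other 4. Asns (6.70 CPM) and Trib3 (5.96 CPM) alone were above every vehicle liver there (at most 1.35 and 5.73 CPM). Ddit3 and Chac1 each had 1 treated liver below the vehicle range. Fat vehicle 3 also stood apart, with an adipocyte marker sum of 9297 CPM (16090 to 20050 CPM in the other 5) and a macrophage marker sum of 9326 CPM (2874 to 5068 CPM). The fitted differences of the members without these libraries are given beside the results.

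The members were ordered by level within each tissue. On the length-scaled FPKM scale (fragments per kilobase of gene and library size), Plin2 was the most abundant member in vehicle liver at 370 ± 83.0 (SD, n = 5), followed by Cideb at 139 ± 16.1, G0s2 at 133 ± 43.1, Cidec at 49.6 ± 24.7 and Plin5 at 28.2 ± 7.10. Cidea at 17.8 ± 9.98, Plin3 at 8.34 ± 2.07 and Plin4 at 7.85 ± 2.12 FPKM came next, and Plin1 was listed at 0. Along this order the libraries of neighbouring genes separated without overlap for Plin2 over Cideb and for Plin4 over Plin1, and every other pair of neighbours overlapped in range.

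In vehicle fat the order was different. Cidec led at 1506 ± 553 FPKM (SD, n = 3), then Plin2 at 1098 ± 266, Plin1 at 491 ± 216, Plin4 at 440 ± 197, G0s2 at 86.1 ± 25.4 and Plin3 at 26.0 ± 2.70. Cidea at 3.66 ± 1.02, Plin5 at 3.60 ± 1.21 and Cideb at 1.24 ± 1.54 FPKM were the lowest. Ranges overlapped between Cidec and Plin2, between Plin1 and Plin4 and among the 3 lowest genes. Both tables are in FPKM but may have been scaled separately, so levels were not tested between tissues.

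**Figure D1:**
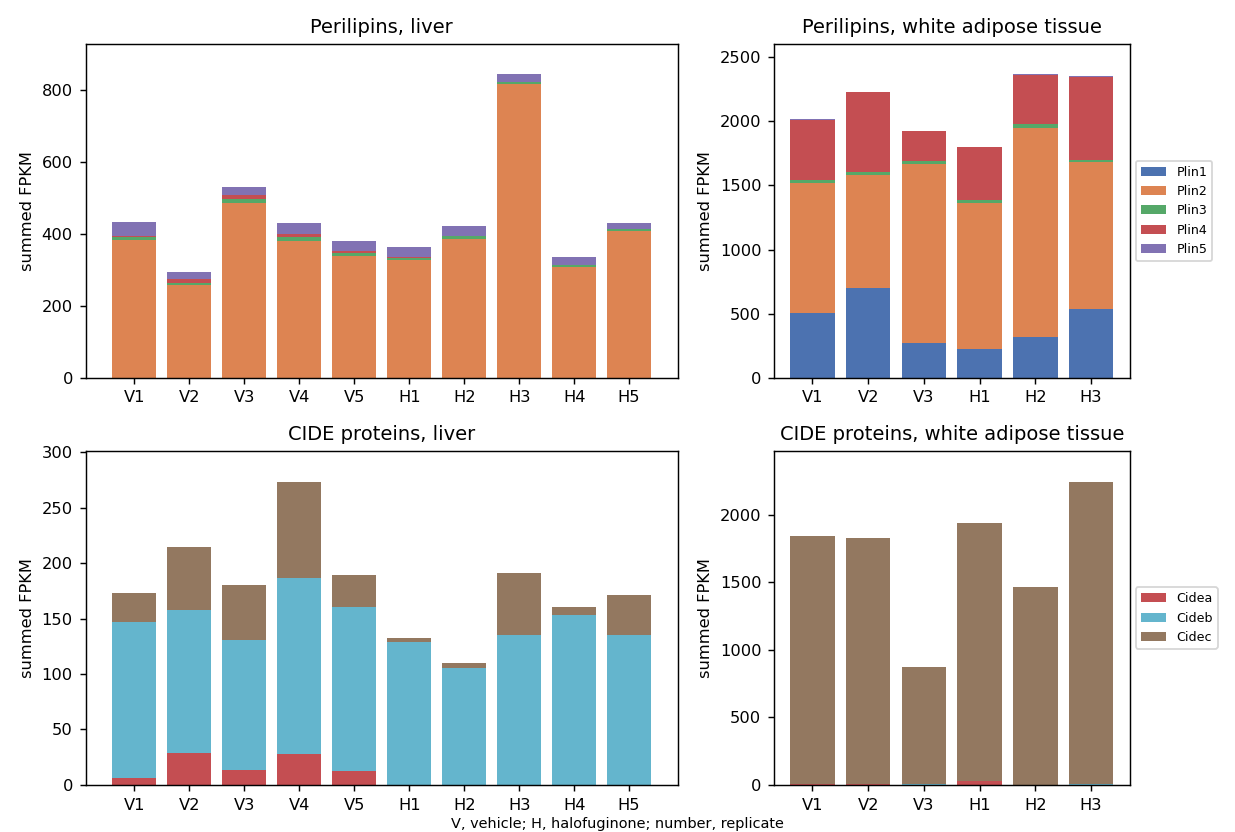
Summed FPKM of the perilipins (top) and of the CIDE genes (bottom) in each liver (left) and fat (right) library, as bars stacked by gene and starting at 0 (V, vehicle; H, halofuginone; the number is the replicate). Plin2 fills most of every liver perilipin bar, 89.1% on average in vehicle and 93.1% in treated liver, Cidea is visible only in the 5 vehicle livers, and Cidec fills nearly all of every fat CIDE bar.

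The promoters of the members that the results turn on are shown for their base composition and for known response elements. Sequences are from RefSeq (GRCm38.p6), the 250 bases before a gene's start read 5′ to 3′ on the minus strand, on which all 5 of these genes lie. They belong to another build than the mm39 that the submitters' processing notes name. Capitals mark AGGTCA, the half-site bound by nuclear receptors such as the PPARs, or its complement. Cidec and Plin5 each have another listed start, whose promoter is not shown and holds no match of AGGTCA.
Plin4 (chr17:56109783-56110032): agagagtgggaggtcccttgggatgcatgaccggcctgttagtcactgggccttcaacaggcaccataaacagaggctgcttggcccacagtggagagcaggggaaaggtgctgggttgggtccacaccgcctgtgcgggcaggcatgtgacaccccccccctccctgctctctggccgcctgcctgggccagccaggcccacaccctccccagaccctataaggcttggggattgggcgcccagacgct
Plin5 (chr17:56117549-56117798): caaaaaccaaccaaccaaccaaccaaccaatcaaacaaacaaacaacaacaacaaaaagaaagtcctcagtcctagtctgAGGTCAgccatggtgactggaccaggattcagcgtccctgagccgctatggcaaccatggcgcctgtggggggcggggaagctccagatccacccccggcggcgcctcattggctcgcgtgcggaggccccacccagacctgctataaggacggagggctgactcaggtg
Plin2 (chr4:86670060-86670309): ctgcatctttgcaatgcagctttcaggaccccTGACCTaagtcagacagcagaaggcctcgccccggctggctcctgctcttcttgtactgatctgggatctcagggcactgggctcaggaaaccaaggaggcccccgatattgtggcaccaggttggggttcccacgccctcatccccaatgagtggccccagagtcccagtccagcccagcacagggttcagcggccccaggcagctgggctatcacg
Cidec (chr6:113435761-113436010): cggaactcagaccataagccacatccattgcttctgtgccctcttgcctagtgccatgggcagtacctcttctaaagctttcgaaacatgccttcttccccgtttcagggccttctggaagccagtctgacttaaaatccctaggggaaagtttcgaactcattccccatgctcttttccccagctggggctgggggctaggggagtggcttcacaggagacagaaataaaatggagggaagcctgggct
G0s2 (chr1:193273189-193273438): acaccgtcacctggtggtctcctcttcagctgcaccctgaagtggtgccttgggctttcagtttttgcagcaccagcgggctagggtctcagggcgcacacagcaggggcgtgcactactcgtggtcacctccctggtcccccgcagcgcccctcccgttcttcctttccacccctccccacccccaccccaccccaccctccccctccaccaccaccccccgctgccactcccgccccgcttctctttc

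The table held 10 promoters for 8 of the 9 members and none for Cidea. AGGTCA was found on either strand in 2 of the 10, against 14.0% of all 32851 promoters of this length. The matches were at bases 218 to 213 before the start of Plin2 (minus strand of the promoter) and 170 to 165 before the Plin5 start shown. The direct repeat of this half-site with 1 base between was in 0 of the 10 (0.0335% of all promoters), as was TGATGNAA, the core of the element bound by C/EBP and ATF factors (3.45% of all). TATAAA was in 1, that of Cideb, against 12.4% of all. Matches of AGGTCA include any within the direct repeat, and the search covers these 250 bases alone. Plin4 and Plin5, whose promoters stand first above, are neighbouring coding genes on chromosome 17, with no other coding gene between them.

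In liver, 3 of the 8 members that passed the filter on low counts were called by edgeR at an adjusted p under 0.05 (Cidea, Plin4 and Plin3, all lower), against 23.2% of the 12311 genes tested. This is the contrast the set was picked from, and nothing is read from the count. Plin1 did not pass the filter, with 0 counts in all vehicle livers and 1 count in halofuginone liver 3. Without halofuginone liver 1 the count was 4, with Plin5 added, where 5312 of all 12422 genes tested were called. Plin3 lost its call when any of 7 single libraries was left out and under 5 of 9 other settings, library size alone among them. Without halofuginone liver 1 the log2 fold changes were −8.06 for Cidea, −0.26 for Cideb, −1.14 for Cidec, 0.16 for Plin2, −0.63 for Plin3 and −0.19 for G0s2, and those of Plin4 and Plin5 are given below.

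Cidea (ENSMUSG00000024526), the CIDE gene best known from brown fat and fatty liver, had 192, 692, 357, 845 and 436 counts in vehicle livers 1 to 5. In the halofuginone livers it had 0, 1, 1, 2 and 4 counts. The groups did not overlap, and 4 of the 5 treated livers, replicate 1 among them, were at or below 3 counts. Summed over libraries, 2522 counts in vehicle stood against 8 in treated liver, a ratio of 325 in CPM (95% interval 165 to 752, exact Poisson, counting error only). On the CPM scale the treated level was 0.0626 (0.0270 to 0.123), and the fitted log2 fold change was −8.28 (SE 0.62), whose size depends on so few counts. Within vehicle liver Cidea also varied most of the CIDE genes, with a coefficient of variation of 55.5% in CPM against 46.5% for Cidec and 8.84% for Cideb.

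Cidec (ENSMUSG00000030278), also known as Fsp27, promotes large droplets. It was at 29.7, 67.9, 58.5, 94.5 and 34.1 CPM in vehicle livers 1 to 5 and at 4.37, 5.18, 52.3, 8.18 and 38.5 CPM in halofuginone livers 1 to 5. The treated livers fell into 2 sets: replicates 1, 2 and 4 lay below every vehicle liver, and replicates 3 and 5 lay inside the vehicle range. Means were 56.9 ± 26.4 and 21.7 ± 22.2 CPM (SD, n = 5 each), and the log2 fold change was −1.39 (SE 0.66). Leaving out each library gave −2.004 (without halofuginone liver 3) to −1.13, and Cidec was called in 0 of these 10 fits.

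Cideb (ENSMUSG00000022219), the hepatocyte CIDE gene that takes part in the loading of very-low-density lipoprotein, was at 154 to 193 CPM (median 180) in vehicle and 117 to 187 CPM (median 158) in treated liver. Only halofuginone livers 2 and 3 lay below the vehicle range, and the log2 fold change was −0.22 (SE 0.13). Cideb overlaps Nop9 on the opposite strand, and 70.2% of its 50-base stretches are shared with Nop9 antisense. The strand of the libraries is not given in the sources used here, so reads from the shared stretch may have been given to either gene. Nop9 was at 15.0 to 23.6 CPM in liver, below Cideb in every library.

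The make-up of the CIDE family shifted with these values. Cidea held 8.29 ± 3.66% of the summed CIDE FPKM in vehicle liver and 0.0365 ± 0.0303% in treated liver (SD, n = 5 each). Cidec went from 23.2 ± 7.64% to 12.5 ± 12.1%, and Cideb from 68.5 ± 10.7% to 87.5 ± 12.1%. The family sum was 206 ± 40.8 FPKM in vehicle and 153 ± 32.0 FPKM in treated liver.

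**Figure D2:**
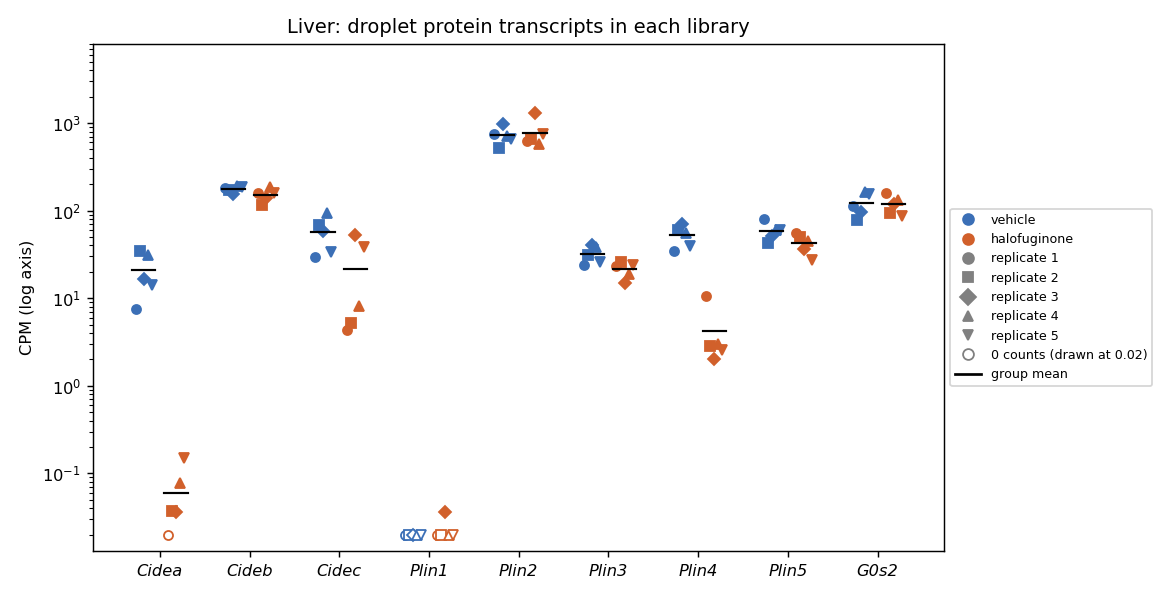
CPM of each member in every liver library (log axis; 1 point per library with its shape giving the replicate, lines are group means; 5 vehicle and 5 halofuginone; open points at the foot are 0 counts). Cidea and Plin4 are separated between the groups, and Cidec in halofuginone livers 3 and 5 lies inside the vehicle range.

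Among the perilipins, Plin4 (ENSMUSG00000002831), which coats nascent droplets in adipocytes and muscle, was at 34.9, 60.1, 70.6, 56.1 and 39.6 CPM in vehicle livers 1 to 5. It was at 10.6, 2.83, 2.00, 2.97 and 2.57 CPM in halofuginone livers 1 to 5. All treated livers lay below all vehicle livers, and replicate 1 was the highest of the treated. The means of 52.3 ± 14.8 and 4.19 ± 3.59 CPM (SD, n = 5 each) differ 12.5-fold, with a log2 fold change of −3.67 (SE 0.44), and of −4.35 without replicate 1. Cidea and Plin4 were the only members whose liver groups did not overlap, a separation that 6.56% of all genes tested showed in the lower direction. On the opposite strand Cidea overlaps B430212C06Rik and Plin4 overlaps Hdgfl2, and neither member shares a 50-base transcript stretch with another gene. Hdgfl2 was at 11.5 to 16.9 CPM in vehicle and 16.4 to 24.7 CPM in treated liver. The part of these overlaps in the counts was not tested.

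Plin2 (ENSMUSG00000028494), the perilipin found on droplets of most cells and held stable by stored fat, was at 755, 518, 970.0, 712 and 666 CPM in vehicle. In halofuginone livers 1 to 5 it was at 618, 663, 1292, 580 and 741 CPM. Replicate 3 lay above every vehicle liver and the other 4 lay inside the vehicle range. The log2 fold change was 0.10 (SE 0.24), and −0.15 without replicate 3. Halofuginone liver 3 is thus the treated library with the highest Plin2 and the highest Cidec, and it had the lowest Plin3 and Plin4.

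Plin5 (ENSMUSG00000011305), which ties droplets to mitochondria in oxidative tissue, was at 42.2 to 80.2 CPM (median 60.3) in vehicle and 27.3 to 55.5 CPM (median 44.6) in treated liver. Halofuginone livers 3 and 5 lay below the vehicle range, and the log2 fold change was −0.46 (SE 0.20), and −0.60 without halofuginone liver 1. Its neighbour on the chromosome, Plin4, differed by −3.67 in the same libraries. Plin3 (ENSMUSG00000024197), a cytosolic perilipin that moves to new droplets, was at 23.8 to 40.4 CPM (median 30.7) in vehicle and 14.7 to 26.2 CPM (median 23.5) in treated liver. For Plin3, 4 of the 5 treated livers lay below the vehicle range, with a log2 fold change of −0.57 (SE 0.19).

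G0s2 (ENSMUSG00000009633), the lipase inhibitor, was at 79.2 to 162 CPM (median 114) in vehicle and 86.9 to 159 CPM (median 119) in treated liver. All 5 treated livers lay inside the vehicle range, and the log2 fold change was −0.04 (SE 0.22). Of the summed perilipin FPKM, Plin2 held 89.1 ± 1.49% in vehicle and 93.1 ± 2.77% in treated liver, Plin5 6.93 ± 1.59% and 5.32 ± 2.24%, and Plin4 1.96 ± 0.660% and 0.175 ± 0.166% (SD, n = 5 each).

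These values are from bulk tissue, in which fewer cells of a type and less RNA per cell cannot be told apart. The summed CPM of 9 hepatocyte markers was 132100 to 147900 in vehicle and 56140 to 122500 in treated liver, and its part in the lower Cidea, Cidec and Plin4 was not tested. Most of that sum was Alb (mean 94120 and 51750 CPM, log2 fold change −0.86, edgeR adjusted p 0.0742), and of the 9 markers 1 was called lower, Ttr, which encodes transthyretin (−1.17). Apoa1 (−1.12), Cyp2e1 (−0.99) and Apob (−0.45) were on the lower side without being called. F2 (−0.07) and Cps1 (−0.04) differed least, and Fgb (0.57) and Ahsg (0.54) were on the higher side without being called. In all, 7 of the 9 log2 fold changes were negative and 2 positive. The 8 adipocyte markers summed to 23.6 to 47.1 CPM in vehicle and 6.04 to 9.05 CPM in treated liver. Nearly all of that sum was Cfd (mean 13.8 and 0.0223 CPM) and Fabp4 (20.7 and 6.66 CPM), both called lower, while Adrb3 was at 0.688 and 1.02 CPM. Of the others, Lep and Lgals12 were at 0 in all livers, Adipoq had at most 1 count in a liver, and Plin1, the perilipin of adipocytes, had 0 counts in the vehicle livers. Of the 5 brown fat markers, Ucp1, which defines brown fat, was at 0 in all livers, and Cox8b, Cox7a1 and Dio2 were at most 0.419 CPM in any. Elovl3, a fatty acid elongase also expressed in liver, was at 77.3 CPM in vehicle and 36.9 CPM in treated liver and made up nearly all of that list's sum. The macrophage sum was highest in halofuginone liver 1, at 621 CPM against 319 to 455 CPM in the other 9, and its part in the higher Plin4 there was not tested.

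**Figure D3:**
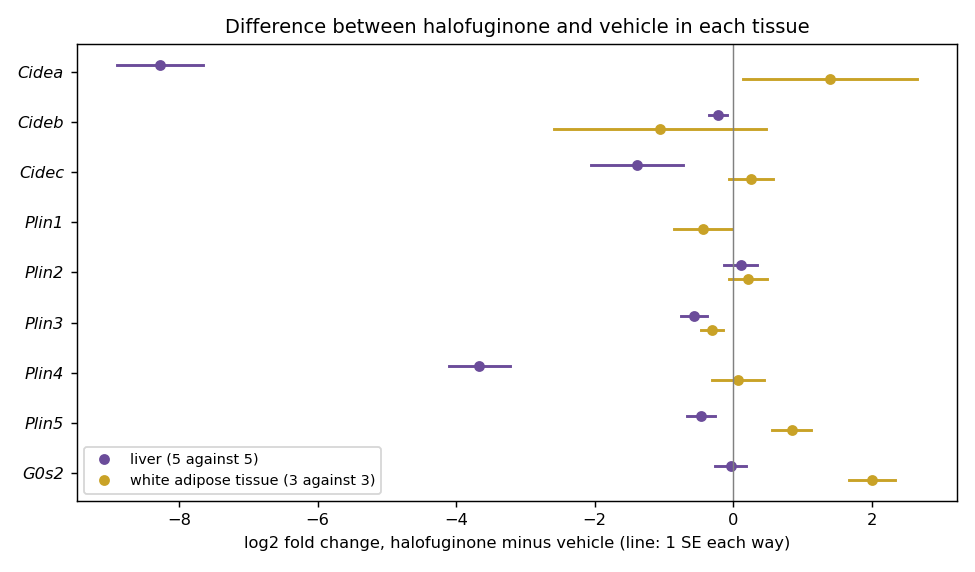
Log2 fold change (halofuginone against vehicle, edgeR) of each member in liver and in fat, with a line of 1 SE each way (5 and 5 livers, 3 and 3 fat samples; liver values are descriptive, and Plin1 in liver was not fitted). Cidea and Plin4 lie far to the left in liver, and G0s2 lies at 2.01 in fat.

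In fat, no member passed the threshold. With edgeR, 0 of the 9 members were called at an adjusted p under 0.05, as were 0 of the 14030 genes tested (0.0%). At an unadjusted p under 0.05, 2 of the 9 were higher (G0s2 and Plin5) and 0 lower, against 5.5% of all genes higher and 7.91% lower. By DESeq2, 1 of the 9, G0s2, was called, against 5.16% of all genes. The groups did not overlap for G0s2 and Plin5, both higher (10.2% of all genes), and for Plin3, lower (10.4%).

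Among the members, G0s2 showed the largest difference in fat relative to its error. It was at 103, 60.6 and 66.9 CPM in vehicle fat 1 to 3 and at 396, 334 and 195 CPM in halofuginone fat 1 to 3. All 3 treated samples exceeded all vehicle samples. The mean was 4.02-fold higher, at 308 ± 103 against 76.8 ± 22.8 CPM (SD, n = 3 each), and the log2 fold change was 2.01 (SE 0.33, 95% interval 1.22 to 2.79). By edgeR the adjusted p was 0.123 (unadjusted 0.000546), so the difference did not pass the threshold, whereas by DESeq2 the adjusted p was 2.628e-06 and in 1 edgeR fit of all 16 libraries 0.00637. Leaving out each library gave 1.79 to 2.28. Lamb3, which overlaps G0s2 on the opposite strand, was at 3.86 to 12.7 CPM in fat.

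Plin5 was low in fat, at 9.41, 7.65 and 4.79 CPM in vehicle and 12.8, 11.4 and 14.9 CPM after halofuginone. All treated values were above all vehicle values, and the log2 fold change was 0.84 (SE 0.28, 95% interval 0.17 to 1.51, edgeR adjusted p 0.294). In the same samples Plin3 was at 88.6, 90.9 and 112 CPM in vehicle and 72.6, 87.3 and 75.4 CPM after treatment. All 3 treated values of Plin3 lay below the vehicle values, at −0.31 on the log2 scale (SE 0.16, edgeR adjusted p 0.460). The macrophage sum was likewise lower in all treated fat (2874 to 3157 CPM against 4179 to 9326 CPM), and its part in the Plin3 values was not tested.

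The abundant adipocyte genes of the set overlapped between the groups. Cidec was at 3158, 3017 and 1523 CPM in vehicle fat and 3118, 2461 and 3624 CPM in treated fat, a log2 fold change of 0.26 (95% interval −0.50 to 1.01). Plin4 was at 3038, 3855 and 1540 CPM in vehicle and 2517, 2394 and 3938 CPM in treated fat, a log2 fold change of 0.07 (−0.82 to 0.96). Plin1 (ENSMUSG00000030546), which guards the droplet of the adipocyte against lipolysis, was at 1029, 1389 and 573 CPM in vehicle and 439, 710.0 and 1058 CPM in treated fat, a log2 fold change of −0.44 (−1.43 to 0.55). For Cidec, Plin1 and Plin4 alike, vehicle fat 3, the sample with the low adipocyte marker sum, was the lowest of the vehicle samples. Without it the log2 fold change was −0.0079 for Cidec, −0.71 for Plin1 and −0.22 for Plin4. For the rest it was 1.205 for Cidea, −1.35 for Cideb, 0.45 for Plin2, −0.19 for Plin3, 0.61 for Plin5 and 1.92 for G0s2.

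Plin2 was at 1869, 1560.0 and 2666 CPM in vehicle and 2035, 2978 and 2022 CPM in treated fat, a log2 fold change of 0.21 (SE 0.27, 95% interval −0.44 to 0.86). These 4 intervals, of Cidec, Plin4, Plin1 and Plin2, hold differences of either sign, and the edgeR adjusted p ranged from 0.707 to 0.959.

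Cidea in fat turned on 1 library. It was at 4.85, 4.66 and 2.94 CPM in vehicle and at 30.7, 0.650 and 1.68 CPM in treated fat. Halofuginone fat 1 was above the vehicle range and the other 2 treated samples below it, so the fitted difference of 1.40 on the log2 scale (SE 1.25, edgeR adjusted p 0.687) became −1.83 without that library. The same library had a brown fat marker sum of 69.0 CPM (2.18 to 8.36 CPM in the other 5) and Ucp1 at 45.3 CPM (at most 0.634 CPM in the other 5). The part of these markers in the Cidea value was not tested.

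In fat, Cideb was below the floor of 3 counts in vehicle fat 1 and in halofuginone fat 1 and 2. It had 2, 64 and 14 counts in vehicle and 1, 1 and 39 counts in treated samples. It was highest in vehicle fat 2 and halofuginone fat 3, the samples with the highest mesothelium marker sums (55.8 and 29.4 CPM, against 2.88 to 16.7 CPM in the other 4), and the part of these markers was not tested. The log2 fold change was −1.06 (SE 1.53, edgeR adjusted p 0.816), and 0.62 without vehicle fat 2. Nop9 on the opposite strand was at 21.3 to 23.9 CPM in all 6 fat samples, where Cideb was at most 3.55 CPM. The part of reads from the shared stretch in the Cideb counts was not tested.

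**Figure D4:**
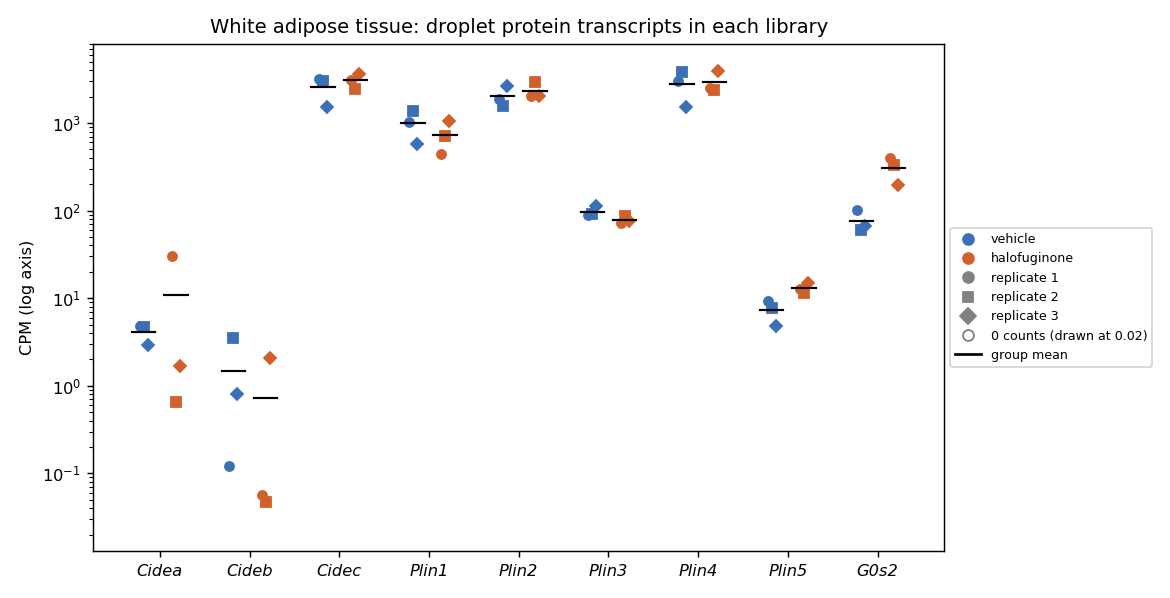
CPM of each member in every fat library (log axis; 1 point per library with its shape giving the replicate, lines are group means; 3 vehicle and 3 halofuginone). G0s2 and Plin5 are higher in all 3 treated samples, and Cidea is at 30.7 CPM in halofuginone fat 1 alone.

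Set side by side, Cidea and Plin4 had log2 fold changes of −8.28 and −3.67 in liver and overlapped or changed sign between libraries in fat, whereas G0s2 was at −0.04 in liver and 2.01 in fat. The difference between the tissues was not tested.

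The rest of the droplet machinery was followed through lists of related genes, each read beside the 12311 genes tested in liver, of which 12.7% were called higher and 10.5% lower with a median log2 fold change of 0.02. Of 23 other droplet proteins tested (24 listed), 5 rose and 8 fell, with a median of −0.07 that became 0.08 under scaling by library size alone and 0.02 without halofuginone liver 1. Leaving out each library gave 2 to 6 that rose and 5 to 9 that fell. Over all genes tested the same fits gave 696 to 2628 that rose and 579 to 2684 that fell. Cav1, the caveolin that also sits on droplets, rose by 1.88 (SE 0.35, edgeR adjusted p 0.00750), and Acsl3, a fatty acyl-CoA synthetase of nascent droplets, by 0.82 (SE 0.26, adjusted p 0.0418). Fitm1, which helps droplets bud from the endoplasmic reticulum, fell by 2.28 (SE 0.31, edgeR adjusted p 0.00313), from 23.4 ± 4.00 to 4.85 ± 2.66 CPM (SD, n = 5 each). Nsdhl, a sterol synthesis enzyme that can sit on droplets, fell by 1.503 (SE 0.24, edgeR adjusted p 0.00426).

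Of 12 lipolysis genes, 5 fell and 0 rose in liver, with a median of −0.57. They were Mgll, the monoglyceride lipase (−1.07, SE 0.30), Lipa, the lysosomal acid lipase (−0.75, SE 0.22), Abhd5, the co-activator of the triglyceride lipase (−0.70, SE 0.20), Abhd6, another monoglyceride hydrolase (−0.69, SE 0.18), and Lipe, hormone-sensitive lipase (−0.40, SE 0.09). Their edgeR adjusted p ranged from 0.0147 for Lipe to 0.0329 for Lipa. Pnpla2, the triglyceride lipase that G0s2 inhibits, was at 75.8 ± 3.24 and 72.7 ± 16.7 CPM (SD, n = 5 each; log2 fold change −0.06, edgeR adjusted p 0.794). Without halofuginone liver 1, 8 of the 12 fell, and without any other single library 1 to 3 did. Over all genes, 2684 of the 12422 tested fell without halofuginone liver 1, and 579 to 972 fell without any other single library.

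Of 14 regulators, 4 fell and 0 rose, with a median of −0.19. Pparg, the nuclear receptor of fat storage, fell to 7.75 ± 0.767 CPM from 18.7 ± 7.37 (SD, n = 5 each), or by 1.26 on the log2 scale (SE 0.25, edgeR adjusted p 0.00947), with 5 of 5 treated livers below all vehicle livers. Ppargc1a, a co-activator of oxidative genes, fell by 0.92 (SE 0.31, edgeR adjusted p 0.0492), and the other two were Hnf4a (−0.71), a hepatocyte identity factor, and Cebpb (−0.32). Ppara, the receptor of fat oxidation, was at 97.6 ± 13.2 and 88.9 ± 33.0 CPM (log2 fold change −0.13, SE 0.25, edgeR adjusted p 0.720). Without halofuginone liver 1, 6 of the 14 fell, where 2684 of all 12422 genes tested did. Without any other single library 1 to 3 fell, where 579 to 972 of all genes did.

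Genes known as targets of these receptors were listed apart. Of 10 targets of PPAR gamma, 8 were tested and 5 fell, with a median of −1.41. Cd36, a fatty acid transporter, fell from 223 ± 21.8 to 67.2 ± 23.4 CPM (SD, n = 5 each; log2 fold change −1.73, SE 0.21, edgeR adjusted p 0.00158). Cfd, the complement protease adipsin, was at 13.8 ± 9.55 CPM in vehicle liver and at no more than 2 counts in any treated liver, at least 116-fold lower against a floor of 3 counts per library. Setting Cfd at that bound could not move the list's median of −1.41, since Cfd stayed the lowest gene of the list. The list shares 3 genes, Cfd, Fabp4 and Adipoq, with the adipocyte markers.

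Of 15 targets of PPAR alpha, 1 rose and 5 fell, with a median of −0.78. The one that rose was Fgf21, a liver hormone also induced by amino acid shortage (2.91, SE 0.51, edgeR adjusted p 0.00617). Vnn1, a pantetheinase, fell by 1.49 (SE 0.41, edgeR adjusted p 0.0256). Without halofuginone liver 1, 7 of the 8 PPAR gamma targets tested and 10 of the 15 PPAR alpha targets fell, where 2684 of all 12422 genes tested did. Without any other single library 4 to 5 and 1 to 3 fell, where 579 to 972 of all genes did. Of the 6 amino acid response genes, 5 rose, with a median of 3.72, led by Asns (6.80, SE 0.74) and Trib3 (5.78, SE 0.81). Without halofuginone liver 1 all 6 rose, with a median of 4.01, where 2628 of all 12422 genes tested rose.

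**Figure D5:**
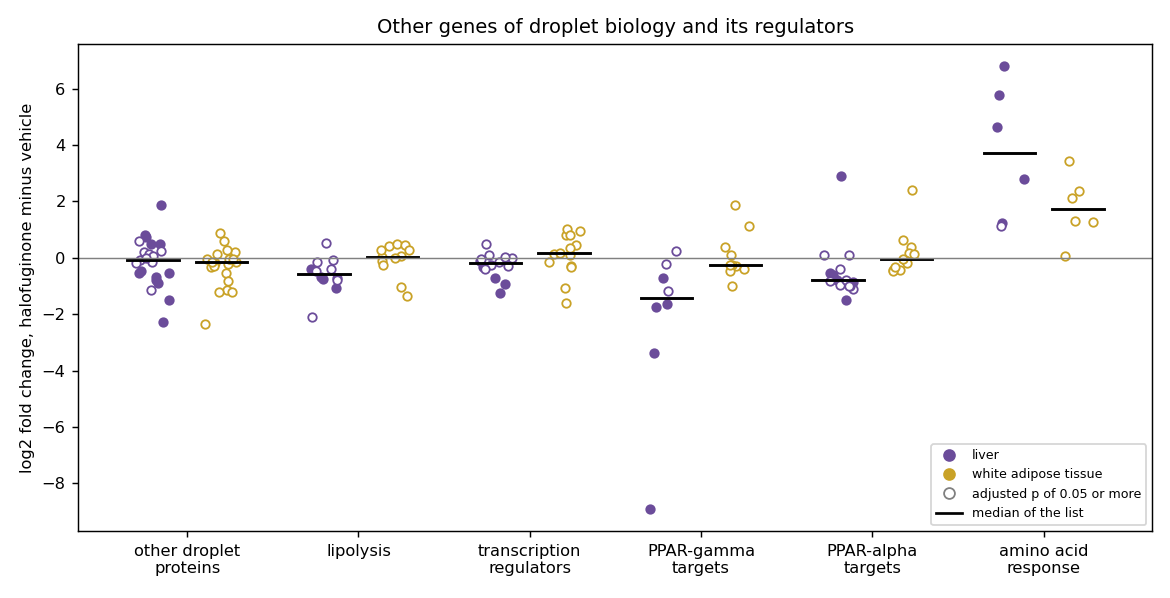
Log2 fold change (halofuginone against vehicle, edgeR) of every tested gene in the lists of other droplet proteins, lipolysis, regulators, PPAR gamma targets, PPAR alpha targets and amino acid response, in liver and fat; filled symbols have an adjusted p under 0.05 and bars mark list medians. In liver the PPAR gamma targets have a median of −1.41, with Cfd lowest, and no symbol is filled in fat.

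In fat, 0 genes of any list were called by edgeR. The counts that follow are at an unadjusted p under 0.05, which 5.5% of all genes passed as higher and 7.91% as lower. In these terms 5 of 22 other droplet proteins were lower, among them Nsdhl (−1.22, SE 0.20, edgeR adjusted p 0.120) and Pnpla3, a lipid remodelling enzyme of droplets (−2.36, SE 0.47, adjusted p 0.159). For the lipolysis genes 1 of 12 was higher, Abhd5 (0.50, SE 0.16, edgeR adjusted p 0.286), and 1 lower, Lipa (−1.05, SE 0.34, adjusted p 0.281). Of 14 regulators 4 were higher and 0 lower at that threshold: Pparg (0.47, SE 0.20), Ppara (0.96, SE 0.40), Cebpb (0.80, SE 0.28) and Mlxipl, the carbohydrate response factor (1.04, SE 0.39), with edgeR adjusted p from 0.304 to 0.368. Pnpla2 (0.42, SE 0.36) and Lipe (0.01, SE 0.36) were not past it.

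Of the PPAR gamma targets in fat, Cfd was higher (1.88, SE 0.38, edgeR adjusted p 0.159) and Lpl, lipoprotein lipase, lower (−0.99, SE 0.41, adjusted p 0.360) at the unadjusted threshold. Of the PPAR alpha targets, Fgf21 was higher (2.42, SE 0.63, edgeR adjusted p 0.212) and Cpt1a, the carnitine transferase of fat oxidation, lower (−0.44, SE 0.16, adjusted p 0.325). For the amino acid response 5 of 6 were higher, led by Ddit3 (2.36, SE 0.33) and Trib3 (3.45, SE 0.54).

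The genes most like Cidea, Cidec and Plin4 across the 10 livers were found by the root mean square difference of log2 CPM, centred on the vehicle mean, among 9071 genes. Since each of the 3 was compared over the contrast that picked the set, likeness is a description. Nearest to Cidea were Cfd (0.66), Car3, a carbonic anhydrase (2.18), and Ntrk2, a neurotrophin receptor (2.38), and Plin4 was at rank 4 (2.50), while Cidec was at rank 71 (3.75). The ranks are not mutual: Cidea was at rank 1460 when measured from Plin4 and at rank 9056 when measured from Cidec. Nearest to Plin4 were Acss3, a short-chain acyl-CoA synthetase (0.59), Serpinb1a, a protease inhibitor (0.72), and Cyp8b1, a sterol hydroxylase of bile acid synthesis (0.79). Nearest to Cidec were Ces2c, a carboxylesterase (0.82), Fabp4, a fatty acid carrier (1.00), and Apoa4, an apolipoprotein (1.05).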

How the data were processed

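Poly(A)-selected RNA of 16 mouse samples was sequenced, 10 of liver and 6 of white adipose tissue, grouped by their titles. The authors deposited 1 table per tissue; counts and FPKM stand in separate columns per the file headers, FPKM being fragments per gene length and library size. The submitters' processing notes list mm39, fastp 0.18.0, Bowtie2 2.2.8, HISAT2, StringTie 1.3.1 and RSEM, without role or order. Per library, 1 to 31 genes with no count carry a positive FPKM, so the deposited counts may be rounded estimates. Reads of overlapping or antisense genes may have been split in counting.

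Members and lists were chosen with earlier results of these data known. All genes of a tissue were fitted in edgeR 4.0.16 under R 4.3.3 (TMM scaling, filterByExpr, quasi-likelihood test, two-sided, Benjamini-Hochberg over all genes tested, calls at an adjusted p under 0.05), after a check on simulated counts. CPM is counts over the TMM-scaled library size. SE is the absolute log2 fold change over the root of the F statistic. No 2 libraries agreed within sampling noise (chi-square per degree of freedom at least 29.7). Symbols matched 22267 of 22322 identifiers.

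Genes named were all members; per list, the 2 largest rises and 2 largest falls called in liver (5 CPM or more in the higher group), and the 2 smallest p in fat; Pparg, Ppara, Pnpla2, Abhd5 and Lipe; and the 3 genes most like Cidea, Cidec and Plin4. Abhd6, Hnf4a and, as promoters' and markers' partners, the overlapping and marker genes were named after their values were seen. One gene that this rule names is not reported here. Shared 50-base stretches and neighbours came from GENCODE M21. Alternatives were DESeq2 1.42.0, its size factors, library size alone, other filters (none, or 10 counts), a block on replicate number, all libraries in 1 fit, limma 3.58.1 on log2 FPKM with a pseudocount of 1 or 0.1 (mean of at least 1 FPKM), and leaving out each library.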

Additional observations from a re-analysis of the deposited data

Results flagged for a closer look

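In groups of 5 liver samples, 2 of 16 member groups held a sample whose gap to its nearest neighbour exceeded 0.71 of the group's range (Dixon's 95% limit), where chance gives about 0.8. Plin2 was at 1292 CPM in halofuginone liver 3 (next 741 CPM, gap 0.774 of the range). Plin4 was at 10.6 CPM in halofuginone liver 1 (next 2.97 CPM, gap 0.887 of the range). That library was also the treated liver whose amino acid response genes summed to a value within the vehicle range.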

How the results depend on the processing

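Cidea in liver was at −8.41 to −3.97 under 9 other settings and −8.87 to −8.04 without each library, and Plin4 at −3.89 to −2.40 and −4.35 to −3.48. These are values of the contrast that picked both genes and support nothing. G0s2 in liver ran from −0.19 to 0.13 over all alternatives. On log2 FPKM with limma, the fold change of Cidea shrank to −3.97 (pseudocount 1) or −6.68 (pseudocount 0.1) and that of Plin4 to −2.40 (pseudocount 1). Liver calls numbered 2850, of which 54.7% were higher. Library size alone raised that share to 76.9% (median shift 0.157 on the log2 scale) and limma on log2 FPKM to 72.8% (shift 0.123). Leaving out 1 liver library gave 1275 (halofuginone 3) to 5312 (halofuginone 1) calls. In fat, edgeR called 0 genes, DESeq2 723, edgeR without a filter 1, limma with a pseudocount of 1 gave 13, 1 fit of all libraries 334, and leaving out 1 library 0 to 1 (1 without vehicle 3). Of the members in fat, DESeq2 and the single fit each called 1, G0s2. The cause of these differences was not tested.

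The replicate number as a block gave 1901 liver calls (2 members) and 0 in fat. Same-numbered samples did not deviate together (r −0.156 to 0.057 in liver, −0.570 to 0.111 in fat). A pairing with a small effect would escape this check, so whether the numbers pair samples was not settled. Under the block Cidea in fat turned to −0.33. Cidea in fat was also −0.20 on log2 FPKM with a pseudocount of 0.1. Leaving out 1 fat library gave −1.83 to 2.00 for Cidea, −4.67 to 0.62 for Cideb, −0.0079 to 0.44 for Cidec and −0.22 to 0.37 for Plin4 (−0.18 without halofuginone 3). At these depths Cidea in treated liver, Plin1 in liver and Cideb in 3 fat samples lie at or near 3 counts.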
